A study of Mus musculus with 6 samples.

Results

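The miR-30 family was followed across the liver samples of a mouse model in which fatty liver disease progresses to liver cancer. Its members were the 5 array probes named mmu-miR-30a, mmu-miR-30b, mmu-miR-30c, mmu-miR-30d and mmu-miR-30e (the prefix for mouse is left out below), the main strands without a star, out of 1096 mouse microRNA (miRNA) probes. All 5 were above background on all 6 arrays. The samples were 1 normal liver of a control mouse, 2 samples of non-tumour liver (NT 1 and NT 2) and 3 samples of hepatocellular carcinoma (HCC 1, HCC 2-1 and HCC 2-2). All had a C57BL6 background. The NT and HCC samples came from STAM mice, a model of non-alcoholic steatohepatitis (NASH) with HCC made with an injection of STZ (streptozotocin, a toxin of insulin-producing cells) and a high-fat diet. Per the labels these mice have HCC by the age of 18 weeks. NT and HCC thus share the injection and the diet, while the sources used here give neither the diet of the control mouse nor the ages at which tissue was taken. The labels do not say that the samples came from separate animals, nor that HCC 2-1 and HCC 2-2 are different tumours, so a p-value here reflects only how far these samples spread, which may be technical.

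A miRNA is a short RNA that, bound to an Argonaute protein, pairs through its seed (bases 2 to 8 from the 5′ end) with messenger RNAs and lowers their stability or translation. MiRNAs with one seed share most of their possible targets and are counted as a family. Members of the miR-30 family are abundant in many epithelial tissues, liver and kidney among them. In zebrafish, miR-30a is needed for bile duct formation. In mice, miR-30c lowers microsomal triglyceride transfer protein, which loads lipid onto lipoproteins. In human cells, miR-30a represses the autophagy protein beclin and miR-30e the SUMO-conjugating enzyme UBC9, and in human liver cancer miR-30d has been tied to spread of tumour cells. These roles are background and were not measured here.

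Mature sequences of 3 of the 5 members were held in the RefSeq table used (mouse build GRCm38.p6), and miR-30b and miR-30d are given by name only. They are shown because probes for near-identical sequences may not be fully separate measurements. Capitals mark the seed, and 1 further mouse miRNA of that table, miR-384-5p, has the same one.
miR-30a-5p: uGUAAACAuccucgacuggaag
miR-30e-5p: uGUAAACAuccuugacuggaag
miR-30c-5p: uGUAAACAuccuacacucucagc
miR-384-5p: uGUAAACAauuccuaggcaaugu

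The first 12 bases of miR-30a, miR-30e and miR-30c were identical. Counted from 1 at the 5′ end, miR-30e differed from miR-30a by the single substitution C13U over 22 bases. Over the same 22 bases miR-30c differed from miR-30a by 5 substitutions (C13A, G14C, G18C, G19U and A20C), all in the 3′ part. Beyond the first 8 bases, miR-384-5p diverged, with 10 differences from miR-30a over 22 bases. Its probe was not above background on any of the 6 arrays, so the seed was represented on these arrays by the 5 miR-30 probes. Whether the probes of miR-30a and miR-30e cross-hybridise was not tested.

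The family is encoded in 3 pairs of neighbouring hairpins. Mir30a (chr1:23272269-23272339) and Mir30c-2 (chr1:23291701-23291784) lie 19361 bp apart. Mir30e (chr4:120772606-120772697) and Mir30c-1 (chr4:120769534-120769622) lie 2983 bp apart, both inside the span of Nfyc, a gene for a subunit of the transcription factor NF-Y. Mir30b (chr15:68337415-68337510) and Mir30d (chr15:68341208-68341289) lie 3697 bp apart. Both Mir30c hairpins give the same mature miR-30c, so its single probe cannot separate the locus shared with miR-30a from the locus shared with miR-30e.

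Each member had 1 spot per array, and precision is limited by how few arrays there were. Between 403 and 540 mouse probes were above background per array, a limit set from 1818 blank spots as their trimmed mean plus 2 SD. The error of a single bright spot within an array can be read from the spike controls, probes printed 8 times each on every array. Their signal varied among spots with an SD of 0.03 to 0.14 on the log2 scale. Mean spike signals were 478 to 748 units above blank, so this SD does not give the error of dimmer probes or that between arrays. The hepatocyte markers miR-122, miR-192 and miR-194 were above background on all arrays. Of the 3 chips, the first carried normal liver and NT 1, the second NT 2 and HCC 1, and the last HCC 2-1 and HCC 2-2. Scanner gain was 38 for normal liver and NT, 41 for HCC 1 and 39 for the remaining HCC arrays, so gain and tumour cannot be told apart. Levels below are log2 intensities after background correction and quantile normalization unless a scale is named.

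MiR-30a, one arm of the chromosome 1 pair, lay at 9.74 in normal liver. It was at 9.08 and 8.74 in NT 1 and NT 2, and at 8.57, 8.61 and 9.02 in HCC 1, HCC 2-1 and HCC 2-2. Normal liver was the highest array, and the NT and HCC arrays overlapped.

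MiR-30c, the member with loci in both the chromosome 1 and chromosome 4 pairs, lay at 9.60 in normal liver. The NT arrays were at 9.24 and 9.02, and the HCC arrays at 8.92, 8.92 and 8.97. Its arrays thus ordered as normal liver, NT and HCC without overlap, an order that 3.1% of the 613 tested miRNAs showed, and the HCC arrays lay close together (SD 0.03).

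For miR-30d, of the chromosome 15 pair, normal liver was at 9.08, the NT arrays were at 8.83 and 8.66, and the HCC arrays at 8.19, 8.09 and 8.61. The same order without overlap was seen, but HCC 2-2 lay close to NT 2. Its neighbour miR-30b was at 8.42 in normal liver, while the NT arrays read 8.61 and 8.42 and the HCC arrays 7.87, 8.13 and 8.34. For miR-30b normal liver was not above NT, and all HCC arrays were below both.

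For miR-30e, of the chromosome 4 pair, normal liver was at 8.19, the NT arrays were at 7.91 and 7.83, and the HCC arrays at 7.64, 7.83 and 7.91. NT and HCC overlapped, with normal liver above them all. On this scale HCC 2-2 was the highest HCC array for each of the 5 members.

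**Figure D1:**
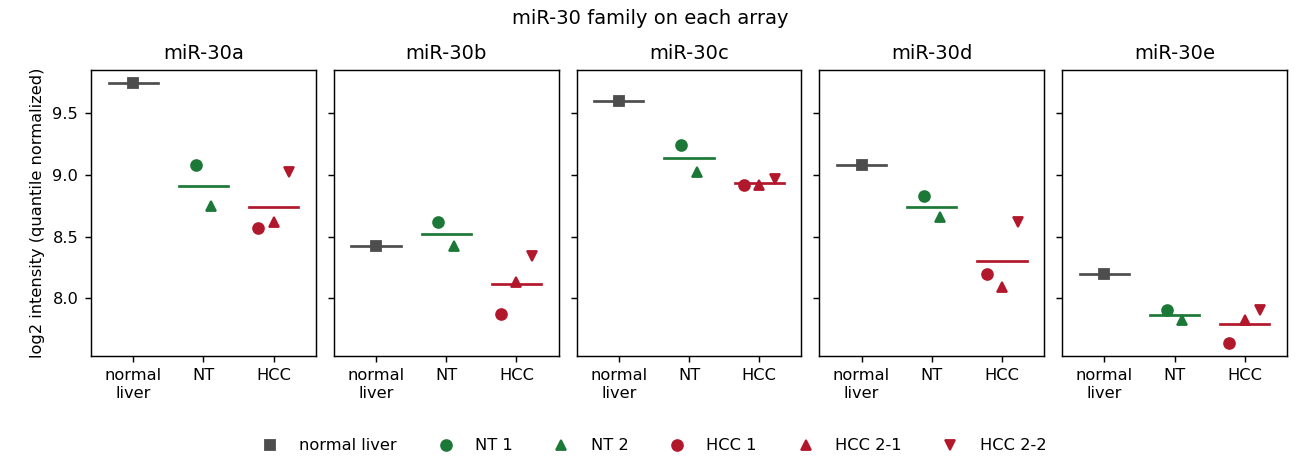
Log2 intensity (quantile normalized, vertical axis) of each miR-30 member on each array, with 1 symbol per array and a horizontal line at the group mean. Normal liver is the highest array for every member but miR-30b, and the HCC arrays lie below both NT arrays for miR-30b, miR-30c and miR-30d.

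The comparison of HCC with NT asked whether the family differs between tumours and the surrounding liver. All 5 members had a lower mean in HCC, a direction shared by 48.9% of the 613 tested miRNAs. MiR-30d was at 8.74 ± 0.12 in NT (SD, n = 2) and 8.30 ± 0.28 in HCC (n = 3), and miR-30b at 8.52 ± 0.13 and 8.11 ± 0.24. In bulk tissue, fewer cells of a type and less RNA per cell cannot be told apart. For 3 members (miR-30b, miR-30c and miR-30d) every HCC array was below both NT arrays, which held for 12.7% of tested miRNAs. The difference, HCC minus NT, was -0.44 (SE 0.18) for miR-30d, -0.40 (SE 0.16) for miR-30b, -0.20 (SE 0.07) for miR-30c, -0.17 (SE 0.18) for miR-30a and -0.08 (SE 0.09) for miR-30e. All 5 moved when single arrays were left out. MiR-30d ranged from -0.59 (without HCC 2-2) to -0.34 (without HCC 2-1), and miR-30b from -0.51 (without NT 2) to -0.29 (without HCC 1). MiR-30a was at -0.02 without NT 1, -0.33 without NT 2, -0.10 without HCC 1, -0.11 without HCC 2-1 and -0.32 without HCC 2-2. MiR-30c was at -0.09 without NT 1 and -0.33 without NT 2. MiR-30e was at -0.03 without NT 1, 0.00 without HCC 1 and -0.13 without HCC 2-2.

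None of the members passed limma's moderated test at an adjusted p of 0.05 over all tested miRNAs, as did 0% of those miRNAs. Limma's adjusted p lay between 0.542 for miR-30c and 0.840 for miR-30e. At an unadjusted p under 0.05 only miR-30c was lower, at 0.0436, against 5.71% of tested miRNAs in this direction and 9.14% in either. The 95% intervals of the difference ran from -0.91 to 0.02 for miR-30d, -0.82 to 0.01 for miR-30b and -0.65 to 0.31 for miR-30a. They were narrower for miR-30c (-0.39 to -0.01) and miR-30e (-0.31 to 0.16). On chip 2, where HCC 1 was hybridised next to NT 2, the difference between them was -0.46 for miR-30d, -0.56 for miR-30b, -0.11 for miR-30c, -0.17 for miR-30a and -0.19 for miR-30e.

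NT against normal liver addresses the model outside its tumours. It rests on 1 normal array, taken to vary as the remaining groups do. MiR-30a had the largest difference of the family, at 8.91 ± 0.24 in NT (SD, n = 2) against 9.74, or -0.83 (SE 0.24; 95% interval -1.47 to -0.19). Next came miR-30c at -0.47 (SE 0.10; -0.72 to -0.21), miR-30d at -0.34 (SE 0.24) and miR-30e at -0.33 (SE 0.12). MiR-30b differed in the other direction by 0.09 (SE 0.21; -0.46 to 0.64), and by 0 without NT 1 or 0.18 without NT 2.

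Both NT arrays were below normal liver for 4 of the 5 members, against 35.1% of tested miRNAs, and 51.4% of tested miRNAs had a lower mean. None of the members passed, while 0.163% of tested miRNAs did: limma's adjusted p was 0.295 for miR-30c, 0.351 for miR-30a and 0.387 for miR-30e. Unadjusted, 3 members (miR-30a, miR-30c and miR-30e) were under 0.05 in limma's test, as were 7.01% of tested miRNAs in this direction and 12.6% in either. On chip 1, NT 1 minus normal liver was -0.66 for miR-30a, -0.36 for miR-30c and 0.19 for miR-30b.

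HCC and normal liver lay farthest apart for miR-30a, at -1.01 (SE 0.23; 95% interval -1.61 to -0.40), or 49.8% of the level in normal liver. MiR-30d differed by -0.78 (SE 0.22), miR-30c by -0.67 (SE 0.09; -0.91 to -0.43), miR-30e by -0.40 (SE 0.11) and miR-30b by -0.31 (SE 0.20; -0.20 without HCC 1). All HCC arrays were below normal liver for all 5 members, against 30.8% of tested miRNAs (47.8% had a lower mean). None passed the adjusted threshold, against 0.163% of tested miRNAs. Limma's adjusted p was 0.153 for miR-30c, 0.181 for miR-30a and 0.238 for miR-30e. Without adjustment 4 members were under 0.05, all but miR-30b, as were 8.48% of tested miRNAs in this direction and 16.2% in either. This comparison shares its HCC arrays and its normal array with the previous ones and is not separate evidence.

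**Figure D2:**
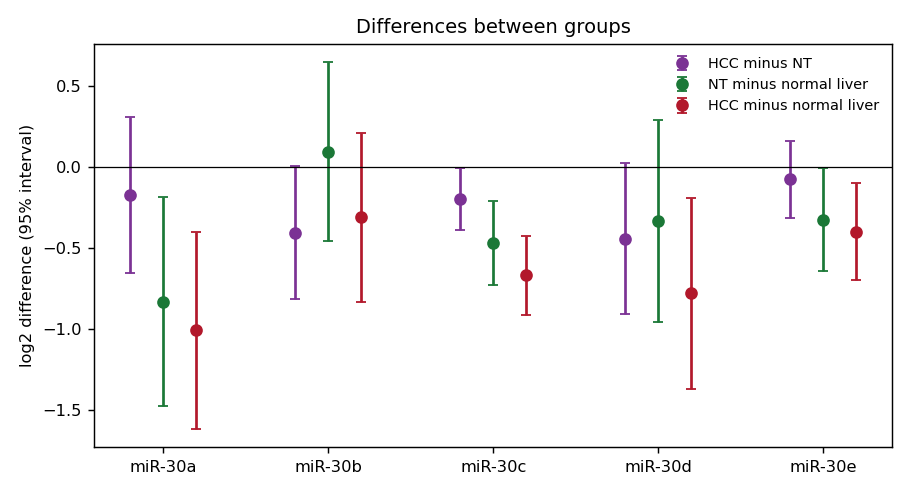
Log2 difference (vertical axis) of each member in the 3 comparisons, with 95% intervals of the limma fit as bars. The intervals of miR-30a, miR-30c and miR-30e exclude 0 against normal liver in both NT and HCC. That of miR-30c also excludes 0 between HCC and NT, and that of miR-30b includes 0 in all 3 comparisons. The intervals are not adjusted for the number of miRNAs tested.

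These differences depend on what the arrays were scaled to. In signal above the blank spots, with no scaling between arrays, miR-30c read 489 in normal liver, where NT had 451 and 493 and HCC 463, 510 and 614. On that scale the miR-30c signal of NT 1, HCC 1, NT 2 and HCC 2-1 was 92.2% to 104% of normal liver, and that of HCC 2-2 was 126%. MiR-30a read 529 in normal liver, where NT had 394 and 407 and HCC 345, 380 and 622, so all arrays but HCC 2-2 were below normal liver. MiR-30e read 137 in normal liver, where NT had 147 and 172 and HCC 179, 200 and 268, so HCC was above NT and NT above normal liver. The HCC arrays were scanned at a higher gain. With arrays scaled to the spike controls, log2 levels of miR-30e in HCC (7.84, 7.82 and 8.17) overlapped those in NT (7.81 and 7.89).

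Unscaled, miR-30b read 193 in normal liver, where NT had 277 and 291 and HCC 194, 262 and 377. MiR-30d read 315 in normal liver, where NT had 322 and 353 and HCC 252, 248 and 481. HCC 2-2 had the highest signal of all arrays for each of the 5 members. Over the same arrays the spike controls lay between -0.12 (NT 1) and 0.25 (HCC 2-1) of normal liver on the log2 scale. The median of the 282 probes above background on all arrays lay above normal liver by 0.22 and 0.56 in NT 1 and NT 2, and by 0.76, 0.75 and 0.96 in HCC 1, HCC 2-1 and HCC 2-2. In each STAM array at least 3 members stood below that median. The lower normalized levels of the family went together with higher signals of other miRNAs. Unscaled, miR-30a itself was below normal liver on all STAM arrays but HCC 2-2, while miR-30e was above it on all 5. The part of each in the normalized differences was not tested.

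**Figure D3:**
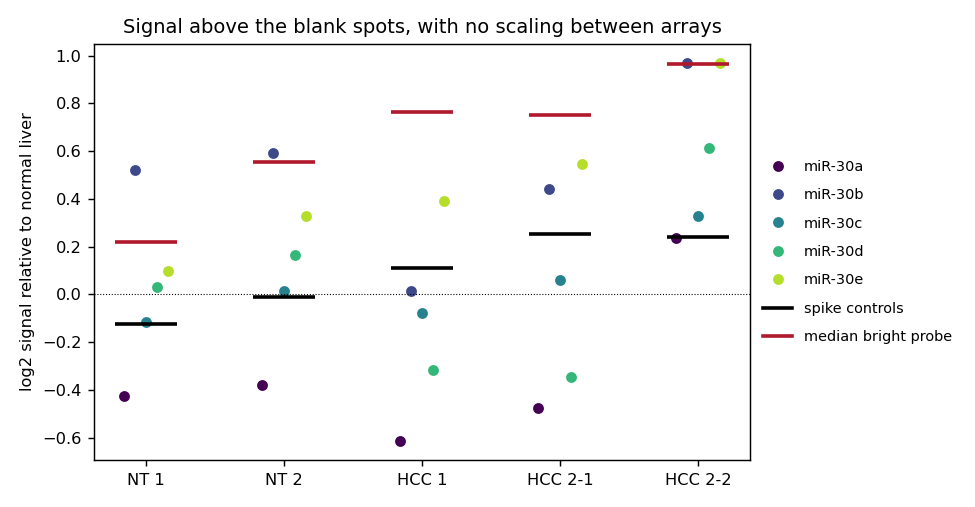
Signal above the blank spots relative to normal liver (log2, vertical axis) for each STAM array, with the members as points, the 16 spike control spots as black bars and the median of the 282 probes above background on all arrays as red bars. MiR-30a is below normal liver on 4 of the 5 arrays, miR-30e is above it on all 5, and the red bars lie above the black bars throughout.

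With arrays scaled to the spike controls, a setting chosen after the files were seen, miR-30a differed from normal liver by -0.31 in NT and -0.44 in HCC. It was then the single member with all arrays of a STAM group below normal liver, in NT (3.26% of tested miRNAs) and in HCC (40.8%). MiR-30c was level with normal liver in NT (0.01) and at -0.09 in HCC. MiR-30b was higher in NT by 0.52 and miR-30e by 0.21. Between HCC and NT, spike scaling gave -0.33 for miR-30d and -0.31 for miR-30b, and none of the 5 members had groups without overlap, against 53.2% of tested miRNAs in the lower direction. None of these differences passed limma's adjusted threshold. Under it, the median over all tested miRNAs itself stood at -0.18 (HCC minus NT), 0.10 (NT minus normal liver) and -0.09 (HCC minus normal liver). Relative to that median, the HCC minus NT difference was -0.15 for miR-30d, -0.13 for miR-30b, 0.06 for miR-30a, 0.09 for miR-30c and 0.28 for miR-30e, and miR-30a was at -0.41 in NT and -0.35 in HCC against normal liver. The sources used here do not give the step at which the spike RNA was added.

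Several directions held over all settings tried. Alternatives that changed only the filter, the prior or the groups fitted together kept the same group means. Their differences equal the main ones, so they are no check of direction. MiR-30a was lower than in normal liver under all 21 alternatives for NT (-1.09 to -0.31) and all 21 for HCC (-1.53 to -0.28), also relative to the median of all miRNAs. MiR-30d (-0.67 to -0.12) and miR-30b (-0.64 to -0.10) were lower in HCC than in NT under all 23 alternatives, again also relative to that median. MiR-30d was also lower in HCC than in normal liver under all 21 alternatives (-1.26 to -0.04), and relative to that median. For miR-30e, HCC minus NT was higher in 5 of 23 alternatives, and NT minus normal liver in 4 of 21.

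**Figure D4:**
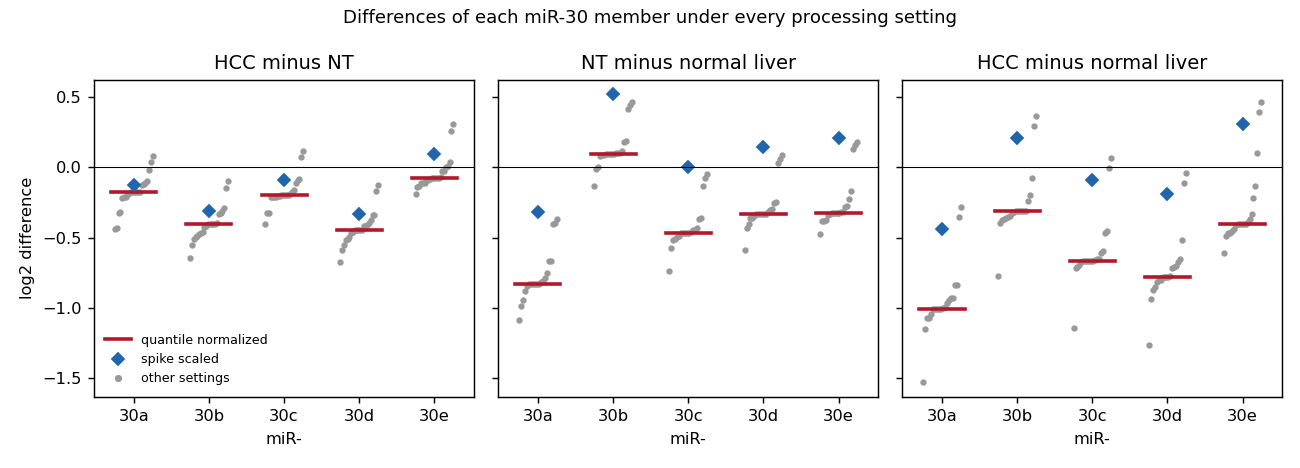
Log2 difference (vertical axis) of each member in the 3 comparisons under every processing setting, with the quantile-normalized value as a red line, the spike-scaled value as a blue diamond and the other settings as grey points. Points of miR-30a against normal liver and of miR-30b and miR-30d between HCC and NT all lie below 0, while those of miR-30e fall on both sides.

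The ratio of 2 members on one array does not depend on a scaling that multiplies each array by a constant. It does change with quantile normalization and with the background correction. It shows unequal differences only, and not which of the 2 differs. Ratios of blank-subtracted signal are given here as log2 values relative to normal liver. They were computed for all 10 pairs of members after the levels had been seen.

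Relative to miR-30e, miR-30a was at -0.53 and -0.71 in NT 1 and NT 2, and at -1.01, -1.02 and -0.74 in HCC 1, HCC 2-1 and HCC 2-2. For miR-30d to miR-30e, the values were -0.07 and -0.16 in NT and -0.71, -0.89 and -0.36 in HCC. The ratio of miR-30c to miR-30e was -0.22 and -0.32 in NT and -0.47, -0.49 and -0.64 in HCC. MiR-30b to miR-30e was at 0.42 and 0.26 in NT and at -0.38, -0.11 and -0.00 in HCC. All 4 ratios to miR-30e were lower on every HCC array than on both NT arrays, which held for 15.7% of the 281 other probes above background on all arrays when set against miR-30e. The opposite pattern, seen for 12.5% of those probes, was shown by 0 members. For 3 of the ratios (miR-30a, miR-30c and miR-30d) the order was normal liver, NT and HCC without overlap, against 1.78% of those probes. That share was 5 probes, with the 3 members among them. The mean differences of HCC minus NT in the 4 ratios were -0.54 for miR-30d, -0.50 for miR-30b, -0.31 for miR-30a and -0.26 for miR-30c. On the shared chip, HCC 1 minus NT 2 was -0.55, -0.64, -0.30 and -0.15 in the same order. With quantile-normalized levels in place of blank-subtracted signal, the ratios of miR-30a and miR-30c to miR-30e overlapped between HCC and NT. On that scale none of the 3 ratios kept the order of normal liver, NT and HCC without overlap.

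The exact permutation test of 3 against 2 arrays was two-sided, with p taken as the doubled one-sided p, so it cannot give a p under 0.2, and each of these 4 ratios reached that smallest value. Of the 10 pairs, 6 had no overlap between HCC and NT, and Benjamini-Hochberg adjustment over the 10 gave an adjusted p of 0.333 for each of the 6 in the exact test. The 4 ratios share miR-30e and are not independent of each other. MiR-30e was also the single member whose unscaled signal was higher on every HCC array than on both NT arrays. A higher signal of miR-30e by itself lowers all 4 ratios.

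**Figure D5:**
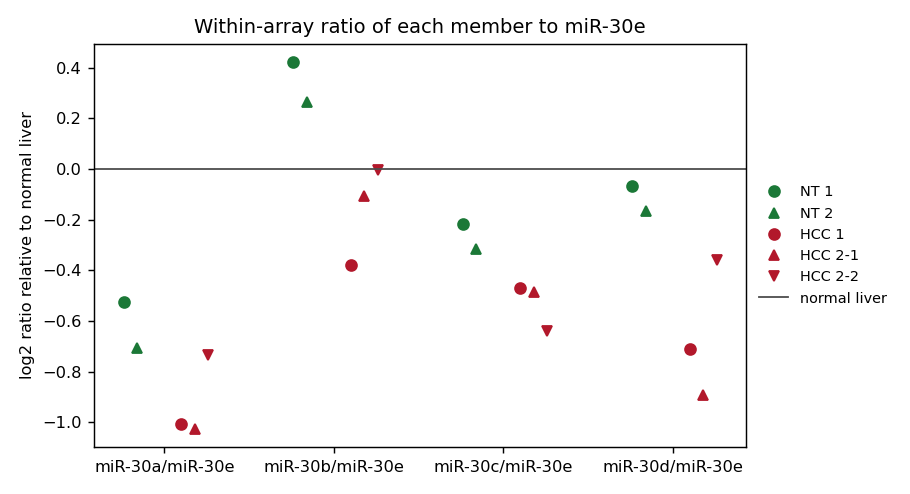
Log2 ratio of the blank-subtracted signal of each other member to that of miR-30e within an array, relative to normal liver (vertical axis, with the line at 0 as normal liver), with 1 symbol per array. All HCC symbols (red) lie below both NT symbols (green) for each of the 4 ratios.

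Against normal liver, miR-30a was lower relative to each other member. Its ratios to miR-30b, miR-30c, miR-30d and miR-30e were lower than in normal liver on all 5 STAM arrays, between -0.09 (to miR-30c in HCC 2-2) and -1.02 (to miR-30e in HCC 2-1). Of the 281 other probes above background on all arrays, 72.6% gained on miR-30a in all 5 STAM arrays. The pattern was thus not particular to the family. The ratios of miR-30c and miR-30d to miR-30e were also below normal liver on all 5. The neighbours miR-30b and miR-30d did not keep a constant ratio either: miR-30b to miR-30d was above normal liver on all 5 arrays, by 0.33 (HCC 1) to 0.79 (HCC 2-1). With 1 normal array these departures have no replicate check on the side of normal liver.

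Across the 6 arrays the members' normalized levels correlated with Pearson's r from 0.571 (miR-30b and miR-30c) to 0.951 (miR-30a and miR-30e). With spike scaling the same range was 0.176 (miR-30a and miR-30e) to 0.979 (miR-30c and miR-30d). These are descriptions of 6 arrays that share chips and scaling. The miRNAs most like the mean of the 5 members, among 275 other probes above background on all arrays, were miR-194 (r = 0.983), miR-511-3p (0.972), miR-203 (0.954), miR-192* (0.953) and miR-101a (0.908). MiR-194 and miR-192* come from hairpins known for hepatocyte and gut expression. Of the others, miR-101a is on the liver-enriched list used below, miR-203 on the bile duct and epithelial list and miR-511-3p on none. MiR-194 itself lay at 10.25 in normal liver, with NT at 9.88 and 9.60 and HCC at 9.24, 9.47 and 9.60. The most opposite were miR-106b (-0.932), miR-25 (-0.908), miR-484 (-0.897), miR-151-5p (-0.893) and miR-15b (-0.877). MiR-106b and miR-25 are made from one host transcript in a cluster known to promote proliferation. These ranks were picked from 275 probes over 6 arrays, and a role shared by either set was not tested.

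The opposite arms of the hairpins, named with a star, gave a second reading of 2 loci. Their sequences differ by the single substitution G18A, and capitals again mark bases 2 to 8.
miR-30a-3p (miR-30a*): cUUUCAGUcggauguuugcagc
miR-30e-3p (miR-30e*): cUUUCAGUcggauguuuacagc

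Both arms lie in one hairpin each, shown with the 2 mature arms in capitals.
Mir30a hairpin: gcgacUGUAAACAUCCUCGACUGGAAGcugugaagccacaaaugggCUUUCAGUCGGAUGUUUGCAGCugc
Mir30e hairpin: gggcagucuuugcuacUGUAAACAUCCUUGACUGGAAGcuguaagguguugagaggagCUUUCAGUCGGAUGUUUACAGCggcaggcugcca

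MiR-30a* and miR-30e* were above background on all 6 arrays but dim, at 24.8 to 39.8 and 27.9 to 41.8 units above the blank level. For miR-30a*, NT minus normal liver was -0.12 (SE 0.10) and HCC minus NT -0.14 (SE 0.07). For miR-30e*, they were -0.36 (SE 0.09) and -0.01 (SE 0.07). None passed limma's adjusted threshold (adjusted p 0.295 to 0.963). Within arrays, the ratio of miR-30a to miR-30a* was below normal liver on all 5 STAM arrays, by -0.91 (HCC 1) to -0.45 (HCC 2-2) on the log2 scale. Of the 281 other probes above background on all arrays, 72.6% likewise gained on miR-30a in all 5 STAM arrays. The ratio of miR-30e to miR-30e* was above normal liver on all 5, by 0.34 (NT 1) to 0.66 (HCC 2-2), and no such share was computed for it. In blank-subtracted signal the arms of these 2 hairpins thus departed from normal liver in opposite directions, which was not tested. With quantile-normalized levels the ratio of miR-30a to miR-30a* stayed below normal liver on all 5 STAM arrays. The ratio of miR-30e to miR-30e* then lay on both sides of normal liver, so the opposite directions did not hold on that scale. The star probes of miR-30b, miR-30c-1, miR-30c-2 and miR-30d were above background on 0, 1, 2 and 1 of the 6 arrays.

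Other miRNA groups on the same arrays place the family. Of 12 tested liver-enriched miRNAs, 11 had a lower mean in HCC than in NT (median -0.16). In NT, 9 of them were lower than in normal liver (median -0.21). None of the 12 passed the adjusted threshold, and miR-215 was not above background in normal liver. The miR-30 medians were -0.20, -0.34 and -0.67 in the order HCC against NT, NT against normal liver and HCC against normal liver, where the median of all tested miRNAs was close to 0. Liver-enriched miRNAs had -0.35 in the last comparison, led by miR-194 (-0.82), miR-148a (-0.80) and miR-192 (-0.78). MiR-122, the most abundant hepatocyte miRNA, was at -0.17 (SE 0.43) there. The let-7 family, high in differentiated cells, had medians of -0.28 (8 of 9 lower), 0.18 (1 of 9 lower) and -0.09 (6 of 9 lower) in the same order, with let-7g at -0.35 (SE 0.18) in the first and let-7i at 0.46 (SE 0.12) in the second. For the miR-29 family, which represses collagens, they were -0.04, 0.13 and -0.25 over 3 members. No let-7 or miR-29 member passed limma's adjusted threshold in any comparison, and differences between families were not tested. With spike scaling the medians in the same order were -0.13, 0.14 and -0.09 for miR-30, and -0.20, 0.05 and -0.16 for liver-enriched miRNAs. They were -0.12, 0.66 and 0.53 for let-7, and 0.03, 0.72 and 0.45 for miR-29. Signs thus turned for NT against normal liver in miR-30 and liver-enriched miRNAs, for HCC against normal liver in let-7 and miR-29, and for HCC against NT in miR-29. The miR-30 median, below that of liver-enriched miRNAs in all 3 comparisons after quantile normalization, was above it in all 3 with spike scaling.

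Summed signals of markers of other cell types are given beside these values, without scaling between arrays. No member of the leukocyte, mesenchymal and stellate, endothelial, hepatocyte or bile duct lists passed limma's adjusted threshold in any comparison. The summed signal above blank of 8 leukocyte miRNAs was 76.3 in normal liver, 190 to 332 in NT and 182 to 261 in HCC, with miR-155 not above background in normal liver. Of these, miR-223 of myeloid cells had the largest normalized difference from normal liver, at 1.04 (SE 0.22) in NT and 0.69 (SE 0.21) in HCC. MiR-146a went the other way, at -0.09 (SE 0.06) in NT and -0.27 (SE 0.06) in HCC. Against normal liver, 7 of the 8 had a higher mean in NT (median 0.20) and 6 in HCC (median 0.05). The summed signal of 5 mesenchymal and stellate miRNAs was 158, 289 to 508 and 235 to 307, and that of 2 endothelial arms 586, 1063 to 1283 and 789 to 1848. Among the stellate list, miR-145 of smooth muscle and stromal cells was at -0.80 (SE 0.07; limma adjusted p 0.0645) in HCC against NT and the single probe for miR-199a-3p with miR-199b at -0.61 (SE 0.07; 0.0920). Endothelial miR-126-3p was at 0.53 (SE 0.32) in NT against normal liver. The 3 erythroid probes summed to 17.4, 417 to 540 and 455 to 807, and miR-451 of red blood cells was the 1 miRNA that passed limma's adjusted threshold against normal liver, at 2.80 (SE 0.18; adjusted p 0.0228) in NT and 2.73 (SE 0.17; adjusted p 0.0198) in HCC. The other erythroid probes, miR-144 (0.07) and that of miR-486 with miR-3107 (0.12), did not pass in NT. The probe of miR-486 with miR-3107 was not above background in normal liver. The 8 bile duct and epithelial miRNAs summed to 101, 116 to 134 and 33.0 to 150, with miR-200c, miR-429 and miR-375 not above background in normal liver, and miR-31 at -0.66 (SE 0.20) led that list in HCC against NT. The 3 hepatocyte miRNAs summed to 7142 in normal liver, 7298 to 7879 in NT and 4332 to 9716 in HCC (the endothelial and hepatocyte sums of NT lie inside the range of HCC), and the 5 miR-30 probes to 1662, 1589 to 1715 and 1435 to 2361. The part of these cell types in the miR-30 differences was not tested.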

How the data were processed

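Total RNA was labelled with the dye Hy5, per the labels, and hybridised to a Toray mouse miRNA chip with 2 cells, scanned at 635 nm, per the file headers. The deposited scanner files hold raw intensity, as pixel medians of spots and of their surroundings, with the fields for background and normalization left empty, per the file headers. The authors' table of processed intensity values, each column with a median of 25, was used as an alternative; the sources used here do not say how it was made.

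Groups came from the sample titles. In R 4.3.3 with limma 3.58.1, intensities were corrected by normexp (offset 50, fitted on all spots), and the 1095 mouse probes kept were put on the log2 scale by quantile normalization; 1 probe with a spot marked not OK was left out. Tested were 613 probes above background on at least 2 arrays: above the mean plus 2 SD of the blank spots, trimmed by 5% at each end. The offset compresses differences of dim probes toward 0. A limma fit of 3 groups to 6 arrays (3 residual and 1.63 prior degrees of freedom) gave 2-sided p-values, adjusted by Benjamini-Hochberg over all tested probes at 0.05. The fit was tested on simulated data. Alternatives covered background, scaling, filter, prior, blocks and each array left out.

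Named are the members, their star strands, miRNAs with the same seed, the 5 probes most and least correlated with the family, and members with the largest differences from lists of liver-enriched, let-7, miR-29, hepatocyte, leukocyte, mesenchymal and stellate, endothelial, erythroid and bile duct and epithelial miRNAs (up to 3 per list and comparison, of which some are printed); markers not above background in normal liver were named outside this rule. The members and lists were chosen with earlier results of these data known.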

Additional observations from a re-analysis of the deposited data

How the results depend on the processing

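No miR-30 member passed the adjusted threshold in any of 23 alternatives for HCC minus NT or of 21 for NT minus normal liver. For HCC minus normal liver, 3 members passed with the 75th percentile taken over the probes above background on all arrays (miR-30a, adjusted p 0.000655; miR-30d, 0.00802; miR-30c, 0.00992), a scaling that moved the median of all miRNAs by -0.61 and under which 498 of 613 passed; in the other 20 none did. Leaving out single arrays gave 0 called members throughout.

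Directions turned in these cases, and the cause was not tested. For HCC minus NT, equal-median scaling gave 0.084 for miR-30a, 0.12 for miR-30c and 0.31 for miR-30e, and the equal 75th percentile 0.038, 0.071 and 0.26. MiR-30e was also at 0.010 with the percentile over probes above background on all arrays, 0.040 with cyclic loess and 0.10 with spike scaling. For NT minus normal liver, miR-30d and miR-30e were at 0.088 and 0.16 with equal medians, 0.063 and 0.13 with the equal 75th percentile, 0.032 and 0.18 in the authors' values, and 0.14 and 0.21 with spike scaling, which put miR-30c at 0.0056. MiR-30b was at -0.13 with the blank level subtracted and -0.012 with the chip as a random block. For HCC minus normal liver, miR-30b, miR-30c and miR-30e were at 0.37, 0.067 and 0.46 with equal medians; miR-30b and miR-30e were at 0.30 and 0.39 with the equal 75th percentile and at 0.21 and 0.31 with spike scaling, and miR-30e at 0.10 in the authors' values. Median, percentile and spike scaling subtract a constant per array and are a single check relative to all miRNAs.

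With the number in the sample titles as a replicate block, 0 members were called for HCC minus NT and the family's median was -0.19; the labels do not say that a number marks a shared animal. Without NT 1 that median was -0.09 without NT 2 -0.33 and without HCC 2-2 -0.32, against -0.20 with all arrays. One array of normal liver and 1 spot per member limit all comparisons.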
